A study of Mus musculus with 8 samples.

Results

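The genes described here are 10 immediate early genes that respond to the transcription factor CREB: Egr1, Egr2, Egr3, Nr4a1, Nr4a2, Nr4a3, Ier2, Dusp1, Sik1 and Gadd45b. They were chosen by name as the rows of the count table that carry these symbols, with earlier results of these data known. All 10 were found among 55304 genes, and all 10 were among the 17440 that passed a filter on low counts, with 75 to 21031 counts per library. Breaking tissue into single cells can also induce these genes.

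RNA was measured in mouse kidney cells, described as isolated fresh by their binding of Dolichos biflorus agglutinin (DBA). This lectin marks the collecting duct. The extraction notes mention both DBA-positive cells and whole kidney, so the starting material is not settled. The study has 4 groups of 2 libraries each: mice that model autosomal dominant polycystic kidney disease (ADPKD) given the CREB inhibitor 666-15; ADPKD mice given vehicle (DMSO); wild type (WT) mice given 666-15; and WT mice given vehicle. The dose was 5 mg/kg once a day for 5 days followed by 2 days of rest, from postnatal day 11 for 3 weeks, and vehicle followed the same schedule. The labels name neither the gene altered in the ADPKD mice nor the promoter of any Cre, and do not say how many animals went into a library, so the p-values measure the spread between libraries, which may be technical.

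Immediate early genes are transcribed within minutes of a signal, without new protein synthesis, because the factors that switch them on are already present. CREB binds the cAMP response element (CRE) and is phosphorylated when cAMP, calcium or growth factor signals rise, and serum response factor acts through the CArG box. In the collecting duct vasopressin raises cAMP, and cAMP signalling is a known feature of cystic epithelium. Egr and Nr4a proteins are themselves transcription factors, while Dusp1, Sik1 and Gadd45b act on the signalling that induced them.

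The stretches upstream of 6 of the genes show where the CRE can be read in their promoters. RefSeq promoter windows on GRCm38.p6, 250 bases before to 50 after each start, were matched for 6 of the 10 genes: Nr4a1, Nr4a2, Nr4a3, Egr2, Dusp1 and Gadd45b. The bases before the start are shown 5′ to 3′ on the strand of the gene, up to the first base of any GENCODE exon, with each match to the short CRE TGACG, on either strand, in capitals. The locations are chr15:101266596-101266845 on the plus strand, chr2:57124004-57124253 on the minus strand, chr4:48045055-48045152 on the plus strand, chr10:67537619-67537868 on the plus strand, chr17:26508520-26508722 on the minus strand and chr10:80929841-80930072 on the plus strand.
Nr4a1: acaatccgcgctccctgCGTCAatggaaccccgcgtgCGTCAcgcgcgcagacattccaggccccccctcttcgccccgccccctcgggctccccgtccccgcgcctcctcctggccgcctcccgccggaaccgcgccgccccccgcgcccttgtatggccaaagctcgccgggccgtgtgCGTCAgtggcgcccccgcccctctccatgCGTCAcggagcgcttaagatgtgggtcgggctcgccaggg
Nr4a2: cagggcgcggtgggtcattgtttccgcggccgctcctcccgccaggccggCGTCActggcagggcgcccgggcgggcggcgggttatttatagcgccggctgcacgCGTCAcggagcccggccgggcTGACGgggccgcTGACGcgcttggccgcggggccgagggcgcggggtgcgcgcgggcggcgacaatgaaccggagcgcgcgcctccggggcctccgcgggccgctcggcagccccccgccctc
Nr4a3: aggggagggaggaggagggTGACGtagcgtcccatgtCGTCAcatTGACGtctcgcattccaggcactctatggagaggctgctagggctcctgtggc
Egr2: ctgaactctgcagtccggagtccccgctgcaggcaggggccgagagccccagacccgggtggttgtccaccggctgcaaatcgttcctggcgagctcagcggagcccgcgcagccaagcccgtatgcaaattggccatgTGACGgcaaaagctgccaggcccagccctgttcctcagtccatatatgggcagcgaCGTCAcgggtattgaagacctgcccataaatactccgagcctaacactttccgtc
Dusp1: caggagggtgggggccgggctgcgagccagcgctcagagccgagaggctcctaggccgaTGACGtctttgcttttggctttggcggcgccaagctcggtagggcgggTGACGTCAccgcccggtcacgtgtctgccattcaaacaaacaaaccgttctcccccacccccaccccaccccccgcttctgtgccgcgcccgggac
Gadd45b: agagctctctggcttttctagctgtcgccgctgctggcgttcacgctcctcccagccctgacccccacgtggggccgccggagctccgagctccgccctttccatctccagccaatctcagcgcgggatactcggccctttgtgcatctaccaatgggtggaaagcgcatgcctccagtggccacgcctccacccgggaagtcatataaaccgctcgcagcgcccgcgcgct

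The short CRE occurred 4 times in the 300-base window of each Nr4a gene. In Nr4a1 the first matched bases lay at -233, -213, -69 and -40 from the RefSeq start, in Nr4a2 at -200, -144, -123 and -111, and in Nr4a3 at -231, -213, -205 and -147. The Nr4a3 match at -147 lies within the first exon of a GENCODE transcript, which starts 152 bases before the RefSeq start, and is not among the bases shown. Among all 32851 RefSeq windows of this length 20.8% held at least 1 short CRE on either strand, and 76 windows, 0.231%, held 4 or more. Dusp1 had the only full CRE, TGACGTCA, at -143, which counts as 2 overlapping short matches, and another short match at -191. Full CREs were in 1.79% of windows. Egr2 had 2 short matches, at -111 and -55, around a CArG box at -72 in the third of its 5 windows. Windows 4 and 5 overlap this one and held the same matches, while windows 1 and 2 held no short CRE. At least 2 short CREs were in 5.01% of all windows. CArG boxes were in 1.63% of windows. Gadd45b had no short CRE in its window and a TATAAA at -46, a motif in 13.6% of windows on either strand. No window of the 6 genes held the EGR site GCGTGGGCG, found in 0.612% of windows. A match is a string of letters and was not tested for binding.

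**Figure D1:**
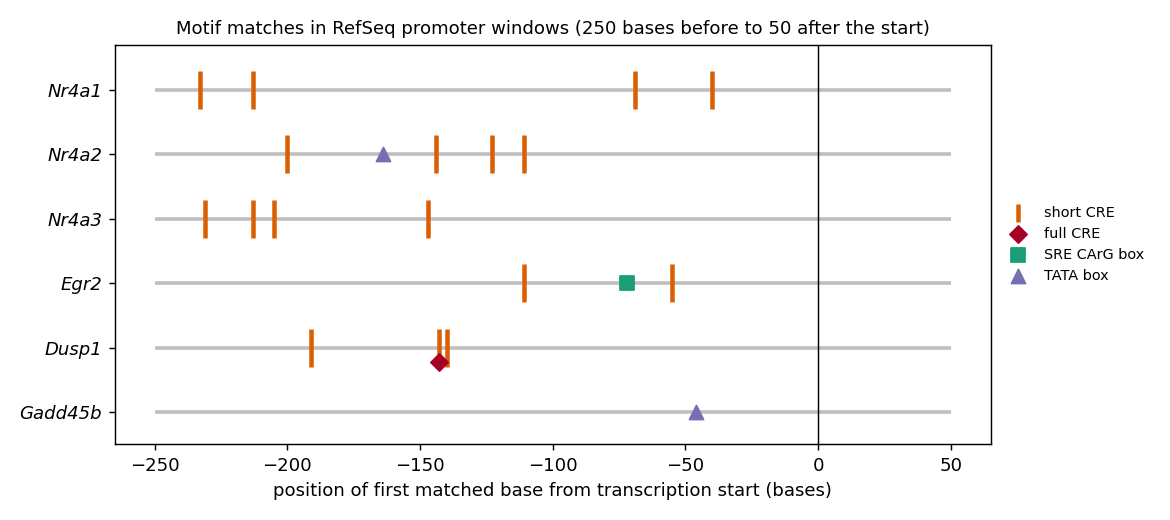
Motif matches in the RefSeq promoter windows of 6 genes, by distance in bases of the first matched base from the transcription start at 0. Orange bars are the short CRE, the diamond the full CRE of Dusp1, the square a CArG box and triangles a TATA box; each Nr4a gene has 4 short CREs, and Gadd45b has none.

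Total counts per library ranged from 15108793 to 19702638. One library, replicate 2 of the inhibitor-treated WT group, differed in sex from the rest: it had 17688 Xist counts and 0 of 4 genes of the Y chromosome (Ddx3y, Eif2s3y, Kdm5d and Uty). In each of the others Xist had 8 counts or fewer and Ddx3y 1776 to 3722. Each inhibitor difference in WT cells, difference of effects and genotype difference with the inhibitor rests on this library. For the 10 genes their values without it are given below. For the other genes and markers named below they are not. Principal cell markers, which define the labelled collecting duct cells, were present in every library, but Avpr2, the vasopressin receptor, had only 0 to 3 counts. In vehicle-treated WT libraries the 8 proximal tubule markers held 0.708% to 0.764% of counts, more than the 10 principal cell markers at 0.109% to 0.148%. Fewer cells of a type and less RNA per cell cannot be told apart in such bulk samples.

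In cells of the cystic kidney most of these genes stood higher than in WT cells. With vehicle 8 of the 10 were higher in ADPKD cells and 0 lower, where 28.8% of all tested genes were higher and 27.6% lower (56.4% in either direction). With the inhibitor, 6 of the 10 were lower in ADPKD cells and 0 higher, against 19.1% lower and 22.3% higher (41.4% in either direction) of all tested genes. In WT cells the inhibitor went with 4 higher and 1 lower, against 13.9% higher and 11.6% lower (25.5% in either direction). The inhibitor's difference itself differed between the genotypes for 6 genes, each lower in ADPKD than in WT cells (background 13% lower). All of these counts are at an adjusted p under 0.05 in edgeR's quasi-likelihood test, adjusted by the Benjamini-Hochberg method over all 17440 genes. Because the 10 genes were chosen with earlier results of these data known, setting them beside the shares over all genes does not test the set. Vehicle-treated ADPKD libraries are the numerator of the genotype comparison and the denominator of the inhibitor comparison in ADPKD cells, so the 6 genes higher by genotype and lower with the inhibitor (Egr1, Nr4a1, Nr4a2, Nr4a3, Dusp1 and Gadd45b) share those libraries. Below, a rise with genotype means a higher level in ADPKD than in WT cells, both with vehicle.

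Markers of cell types also differed between the groups, not all in the pattern of the 10 genes. With the inhibitor in ADPKD cells 9 of 9 endothelial markers were lower (median -1.73), at 0.0288% to 0.0370% of counts against 0.105% to 0.131% with vehicle. In WT cells 1 of the 9 was lower, at 0.0738% to 0.122% with the inhibitor and 0.131% to 0.152% with vehicle. Other sets went both ways with the inhibitor in ADPKD cells. Intercalated cell markers held 0.0367% to 0.0456% of counts with the inhibitor and 0.0096% to 0.0121% with vehicle. Proximal tubule markers held 0.0102% to 0.0120% against 0.0022% to 0.0027%, and podocyte markers 0.0057% to 0.0071% against 0.0127% to 0.0138%. Between genotypes with vehicle 7 of 9 macrophage markers were higher and 1 lower, at 0.0245% to 0.0302% of counts in ADPKD libraries and 0.0091% to 0.0124% in WT libraries, and 8 of 8 proximal tubule markers were lower, at 0.0022% to 0.0027% in ADPKD libraries against 0.708% to 0.764% in WT libraries. Of 9 stromal markers 6 were higher and 1 lower in the same comparison, at 0.0397% to 0.0660% of counts in ADPKD libraries and 0.0267% to 0.0324% in WT libraries. With the inhibitor in WT cells 9 of 9 tested principal cell markers were higher, at 0.602% to 0.609% against 0.109% to 0.148% with vehicle, 7 of 9 macrophage markers were higher, at 0.0129% against 0.0091% to 0.0124%, and 6 of 8 proximal tubule markers were lower, at 0.242% to 0.290% against 0.708% to 0.764%. Over all tested genes 56.4% were called in either direction between genotypes with vehicle. With the inhibitor the shares were 41.4% in ADPKD cells and 25.5% in WT cells. No marker of these sets was at 0 in both libraries of a group. Their part in the differences of the 10 genes was not tested.

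Across the 4 groups, vehicle-treated ADPKD cells had the highest mean for 8 of the 10 genes. These means come from the libraries of the comparisons above, so their order is not a separate result. Ier2 was highest in inhibitor-treated WT cells and Sik1 in vehicle-treated WT cells. The lowest mean was in inhibitor-treated ADPKD cells for 3 genes, in inhibitor-treated WT cells for 3 and in vehicle-treated WT cells for 4. Together the 10 genes held 0.192% and 0.171% of counts in inhibitor-treated ADPKD libraries and 0.290% and 0.2997% in vehicle-treated ADPKD libraries. In WT libraries the share was 0.253% and 0.227% with the inhibitor and 0.212% and 0.208% with vehicle. Vehicle-treated ADPKD libraries were the highest of the 8 and inhibitor-treated ADPKD libraries the lowest.

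**Figure D2:**
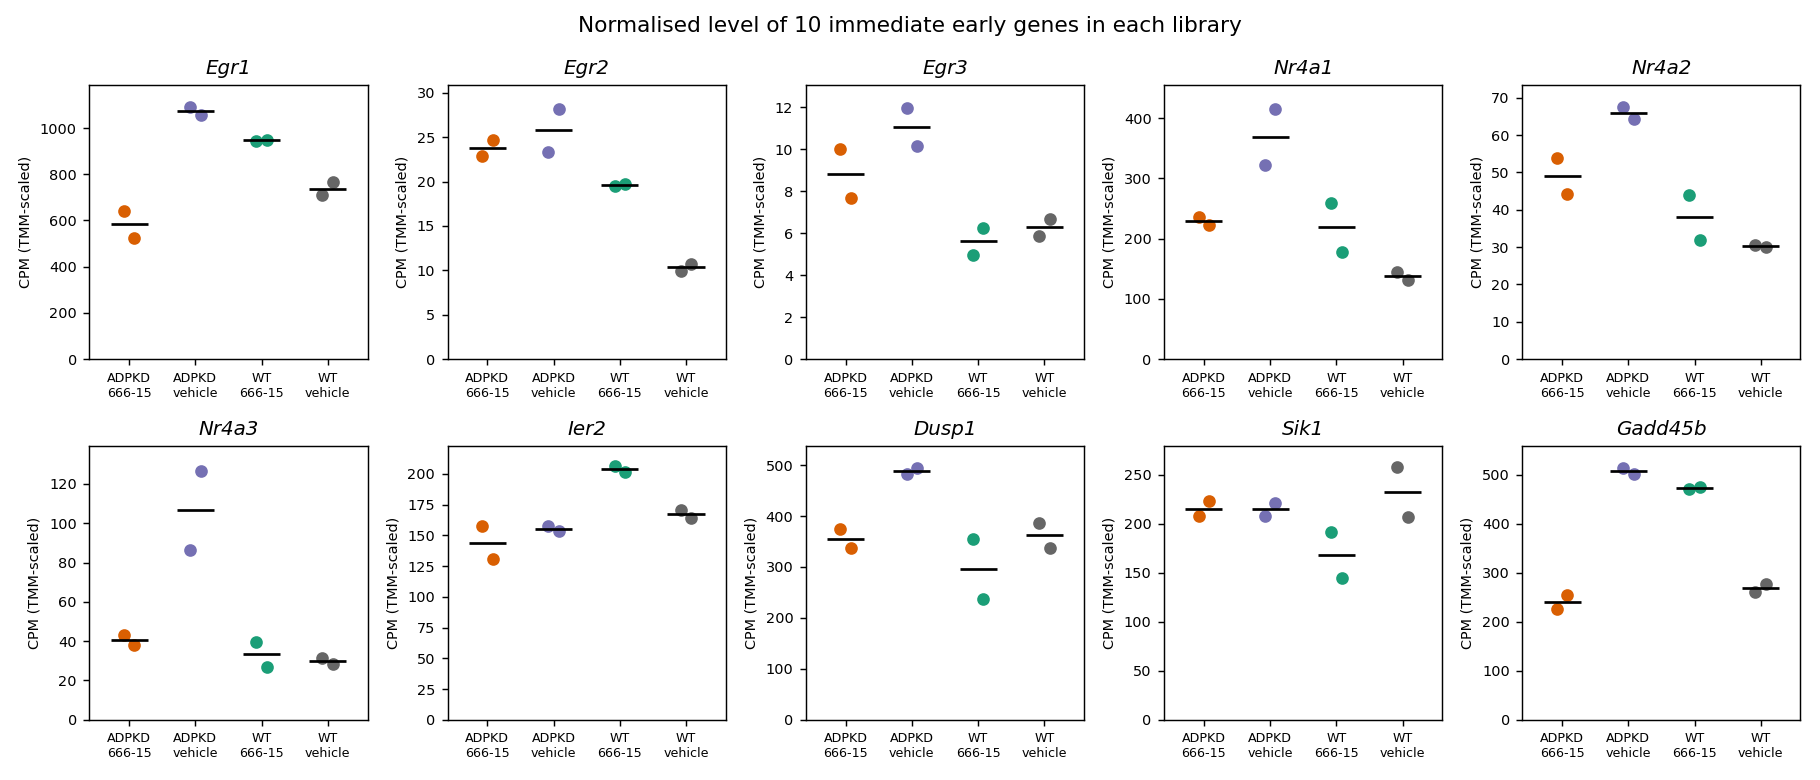
Level of each gene in each library, in CPM, counts scaled to library size by TMM, one panel a gene with its own axis from 0; points are libraries and bars the mean of 2. Vehicle-treated ADPKD libraries are the highest group for 8 genes, with Ier2 and Sik1 as the exceptions.

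Per kilobase of transcript and averaged over the 8 libraries, Gadd45b was the most abundant, Egr1 the next and Egr3 the least. Levels are in CPM, counts scaled to library size. Mean levels of Gadd45b were 187 CPM per kilobase in inhibitor-treated ADPKD cells, 395 in vehicle-treated ADPKD cells, 369 in inhibitor-treated WT cells and 209 in vehicle-treated WT cells. Egr1 averaged 129.9, 239, 211 and 165 CPM per kilobase in the same order of groups, and Egr3 averaged 2.25, 2.81, 1.43 and 1.59. The most and the least abundant Egr genes were thus at nearly opposite ends of the set. Among the Nr4a genes Nr4a1 was the most abundant in every group, at 54.0 to 144 CPM per kilobase, against 8.48 to 18.5 for Nr4a2 and 5.26 to 18.6 for Nr4a3.

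Egr1 encodes a zinc finger transcription factor that is induced by mitogens and stress (chromosome 18, 34859823 to 34864984, plus strand, 2 exons). It had 641 and 524 CPM in inhibitor-treated ADPKD libraries and 1091 and 1056 CPM in vehicle-treated ADPKD libraries. In WT libraries it had 945 and 949.9 CPM with the inhibitor and 709 and 767 CPM with vehicle. The 4 groups did not overlap, and their order put both ADPKD groups at the ends and both WT groups between them. Between genotypes with vehicle Egr1 rose in ADPKD cells by a log2 fold change of 0.54 ± 0.10 (SE, n = 2 libraries a group, edgeR adjusted p = 6.74e-04). Inhibitor-treated cells had less Egr1 than vehicle-treated cells in ADPKD mice (-0.88 ± 0.11, edgeR adjusted p = 4.11e-05) and more in WT mice (0.36 ± 0.10, edgeR adjusted p = 0.0226), and the difference between these effects was -1.24 ± 0.15 (edgeR adjusted p = 9.11e-05). With 1 WT library left out the WT call did not hold for vehicle replicate 1 (0.30, adjusted p = 0.189), vehicle replicate 2 (0.41, adjusted p = 0.0599) or inhibitor replicate 2 (0.35, adjusted p = 0.0553), nor with RLE scaling or DESeq2 (0.30 each, adjusted p = 0.0554 and 0.0543).

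Egr2, a relative that is best known from Schwann cells and lymphocytes, lies on chromosome 10 (67535475 to 67542188, plus strand, 2 exons). It had 22.8 and 24.6 CPM in inhibitor-treated ADPKD libraries, 23.3 and 28.2 CPM in vehicle-treated ADPKD libraries, 19.5 and 19.7 CPM in inhibitor-treated WT libraries and 9.96 and 10.8 CPM in vehicle-treated WT libraries. Vehicle-treated WT libraries stood below all others, while the ADPKD groups overlapped. Egr2 rose with genotype in vehicle-treated cells (1.32 ± 0.16, edgeR adjusted p = 1.19e-05) and with the inhibitor in WT cells (0.92 ± 0.16, edgeR adjusted p = 9.10e-04). In ADPKD cells its inhibitor difference was -0.12, with a 95% interval of -0.45 to 0.21 (edgeR adjusted p = 0.562). The inhibitor effects differed by -1.04 ± 0.22 (edgeR adjusted p = 0.0041).

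Egr3, which is induced with Egr1 in many tissues, had the fewest counts of the set (chromosome 14, 70077203 to 70082614, plus strand, 2 exons). Its levels were 10.02 and 7.67 CPM in inhibitor-treated ADPKD libraries, 12.0 and 10.2 CPM in vehicle-treated ADPKD libraries, 4.97 and 6.26 CPM in inhibitor-treated WT libraries and 5.88 and 6.67 CPM in vehicle-treated WT libraries. Every ADPKD library was above every WT library, and the WT groups overlapped. Between genotypes with vehicle it rose by 0.82 ± 0.23 (edgeR adjusted p = 0.0093), a call that did not hold with replicate 1 of the vehicle-treated WT group (0.71, adjusted p = 0.0893) or of the vehicle-treated ADPKD group (0.69, adjusted p = 0.0566) left out. The inhibitor differences were -0.32 (95% interval -0.82 to 0.18) in ADPKD cells and -0.16 (-0.69 to 0.37) in WT cells, and neither passed.

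The 3 Nr4a genes encode orphan nuclear receptors that bind DNA without a known circulating hormone and are induced by cAMP in many cell types. All 3 were highest in vehicle-treated ADPKD cells and lowest in vehicle-treated WT cells, all 3 fell with the inhibitor in ADPKD cells, and all 3 had an inhibitor effect that differed between genotypes. Nr4a1 (chromosome 15, 101254269 to 101274795, plus strand, 8 exons) had 237 and 223 CPM in inhibitor-treated ADPKD libraries and 323 and 415 CPM in vehicle-treated ADPKD libraries. In WT libraries it had 259.6 and 178 CPM with the inhibitor and 145 and 131 CPM with vehicle. Vehicle-treated ADPKD libraries were above all others and vehicle-treated WT libraries below all others, and the inhibitor-treated groups overlapped. It rose with genotype (1.42 ± 0.18, edgeR adjusted p = 7.58e-05), fell with the inhibitor in ADPKD cells (-0.68 ± 0.17, edgeR adjusted p = 0.0109) and rose with the inhibitor in WT cells (0.67 ± 0.18, edgeR adjusted p = 0.0201). The effects differed by -1.35 ± 0.25 (edgeR adjusted p = 0.0034).

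The Nr4a1 inhibitor call in ADPKD cells did not hold with inhibitor replicate 1 (-0.71, adjusted p = 0.0628), inhibitor replicate 2 (-0.63, adjusted p = 0.0921) or vehicle replicate 2 (-0.47, adjusted p = 0.0742) left out. In WT cells the Nr4a1 call did not hold with inhibitor replicate 1 (0.36, adjusted p = 0.0911), vehicle replicate 1 (0.74, adjusted p = 0.0726) or vehicle replicate 2 (0.59, adjusted p = 0.133) left out. Without the library of the other sex, inhibitor-treated WT replicate 2, it was 0.91 (adjusted p = 5.89e-04). The difference between the effects kept its call in each of these fits.

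Nr4a2 (chromosome 2, 57106830 to 57124003, minus strand, 8 exons), best known as the Nurr1 of dopamine neurons, had 53.9 and 44.1 CPM in inhibitor-treated ADPKD libraries and 67.4 and 64.3 CPM in vehicle-treated ADPKD libraries. With the inhibitor it had 44.0 and 31.9 CPM in WT libraries, against 30.5 and 30.1 CPM with vehicle. No groups overlapped, although the lower inhibitor-treated ADPKD library was level with the higher inhibitor-treated WT library. Nr4a2 rose with genotype (1.12 ± 0.15, edgeR adjusted p = 4.17e-05), fell with the inhibitor in ADPKD cells (-0.43 ± 0.15, edgeR adjusted p = 0.0396), and was at 0.32 ± 0.16 with the inhibitor in WT cells (edgeR adjusted p = 0.152), where it was 0.53 without inhibitor replicate 2 (adjusted p = 0.0192) and 0.072 without inhibitor replicate 1 (adjusted p = 0.786). The effects differed by -0.75 ± 0.22 (edgeR adjusted p = 0.0228). The call in ADPKD cells was lost when any 1 of the 6 libraries other than the inhibitor-treated WT pair was left out, at -0.56 to -0.28 (adjusted p = 0.0512 to 0.312). The difference of effects was lost in 5 of 8 such fits, without either vehicle-treated WT library, inhibitor-treated WT replicate 1, vehicle-treated ADPKD replicate 1 or inhibitor-treated ADPKD replicate 2, at -0.74 to -0.48 (adjusted p = 0.0585 to 0.123).

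Nr4a3 (chromosome 4, 48045153 to 48086447, plus strand, 8 exons), the third receptor, had the largest genotype difference of the 10 genes. It had 43.0 and 38.1 CPM in inhibitor-treated ADPKD libraries, 86.4 and 127 CPM in vehicle-treated ADPKD libraries, 39.8 and 26.8 CPM in inhibitor-treated WT libraries and 31.6 and 28.6 CPM in vehicle-treated WT libraries. Both vehicle-treated ADPKD libraries were above the other 6, among which the groups overlapped in part. Nr4a3 rose with genotype (1.82 ± 0.21, edgeR adjusted p = 4.50e-05), a fold of 3.54, and fell with the inhibitor in ADPKD cells (-1.39 ± 0.21, edgeR adjusted p = 6.02e-04), to 0.381 of the vehicle level. In WT cells its inhibitor difference was 0.14, with a 95% interval of -0.34 to 0.62 (edgeR adjusted p = 0.677). The effects differed by -1.53 ± 0.30 (edgeR adjusted p = 0.0047). Its genotype, ADPKD inhibitor and interaction calls were kept in each of the alternatives and with each library left out.

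Ier2, a small nuclear protein with no intron in its gene (chromosome 8, 84661331 to 84662852, minus strand, 1 exon), did not follow the Egr and Nr4a pattern. It had 157 and 131 CPM in inhibitor-treated ADPKD libraries, 158 and 153 CPM in vehicle-treated ADPKD libraries, 207 and 201 CPM in inhibitor-treated WT libraries and 171 and 164 CPM in vehicle-treated WT libraries. All WT libraries were above all ADPKD libraries, and the ADPKD groups overlapped. Its genotype difference with vehicle was -0.11 (95% interval -0.33 to 0.11, edgeR adjusted p = 0.383), its inhibitor difference -0.11 (-0.33 to 0.11, edgeR adjusted p = 0.424) in ADPKD cells and 0.28 (0.06 to 0.50, edgeR adjusted p = 0.0603) in WT cells. Removing a GC trend brought the WT difference past the threshold (0.31, adjusted p = 0.0379). Ier2 had the highest GC content of the 10 genes, at 60.9%, above 97.3% of tested genes.

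Dusp1 encodes the phosphatase MKP-1, which switches off MAP kinases (chromosome 17, 26505590 to 26562128, minus strand, 3 exons in its longest transcript). It had 374 and 338 CPM in inhibitor-treated ADPKD libraries and 482 and 495 CPM in vehicle-treated ADPKD libraries. In WT libraries it had 355 and 237 CPM with the inhibitor and 387 and 338 CPM with vehicle. Vehicle-treated ADPKD libraries were above the other 6, and the other groups overlapped. It rose with genotype (0.43 ± 0.16, edgeR adjusted p = 0.0401) and fell with the inhibitor in ADPKD cells (-0.46 ± 0.16, edgeR adjusted p = 0.0414), with -0.29 ± 0.16 in WT cells (edgeR adjusted p = 0.218), a value that rested on inhibitor replicate 2, the library of the other sex: it was -0.034 without that library (adjusted p = 0.870) and -0.62 without inhibitor replicate 1 (adjusted p = 0.0015). The difference of effects was -0.17 (95% interval -0.67 to 0.34, edgeR adjusted p = 0.641). Both calls were lost when any 1 of the 6 libraries other than the inhibitor-treated WT pair was left out, at 0.32 to 0.51 for genotype (adjusted p = 0.0647 to 0.236) and -0.52 to -0.37 for the inhibitor (adjusted p = 0.0537 to 0.235), and the genotype call also with RLE scaling (0.39, adjusted p = 0.0521). The GENCODE model of Dusp1 overlaps the gene Ergic1 and the pseudogene Gm8225 on the other strand and 2 models on its own strand, and without a known strand setting their reads cannot be told apart.

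Sik1 encodes a kinase that cAMP induces and that restrains CREB through its coactivators (chromosome 17, 31844250 to 31855804, minus strand, 14 exons). It had 208 and 223 CPM in inhibitor-treated ADPKD libraries and 208 and 222 CPM in vehicle-treated ADPKD libraries. In WT libraries it had 192 and 144 CPM with the inhibitor and 258 and 207 CPM with vehicle. The ADPKD groups could not be separated, and inhibitor-treated WT libraries were below the other 6. Its inhibitor difference was 0.0044 in ADPKD cells (95% interval -0.30 to 0.31) and it fell in WT cells (-0.47 ± 0.14, edgeR adjusted p = 0.0278). That call did not hold with inhibitor replicate 2 (-0.28, adjusted p = 0.140) or vehicle replicate 1 (-0.31, adjusted p = 0.257) left out, nor in a model of the 2 WT groups alone (-0.47, adjusted p = 0.0739). With vehicle the genotypes differed by -0.12 (-0.42 to 0.19, edgeR adjusted p = 0.504).

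Gadd45b encodes a stress sensor that binds MAP kinase kinases and takes part in DNA demethylation (chromosome 10, 80930073 to 80932204, plus strand, 4 exons). It had 226 and 254 CPM in inhibitor-treated ADPKD libraries and 513 and 501 CPM in vehicle-treated ADPKD libraries. With the inhibitor it had 471 and 476 CPM in WT libraries, against 261 and 276 CPM with vehicle. Vehicle-treated ADPKD and inhibitor-treated WT libraries were high, the other 2 groups low, and no groups overlapped. Gadd45b rose with genotype (0.92 ± 0.09, edgeR adjusted p = 2.68e-06), fell with the inhibitor in ADPKD cells (-1.08 ± 0.09, edgeR adjusted p = 4.89e-06) and rose with it in WT cells (0.82 ± 0.09, edgeR adjusted p = 4.03e-05). The effects differed by -1.90 ± 0.13 (edgeR adjusted p = 2.79e-06), the largest difference of the 10 genes. These 4 calls were kept in each of the alternatives and with each library left out.

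**Figure D3:**
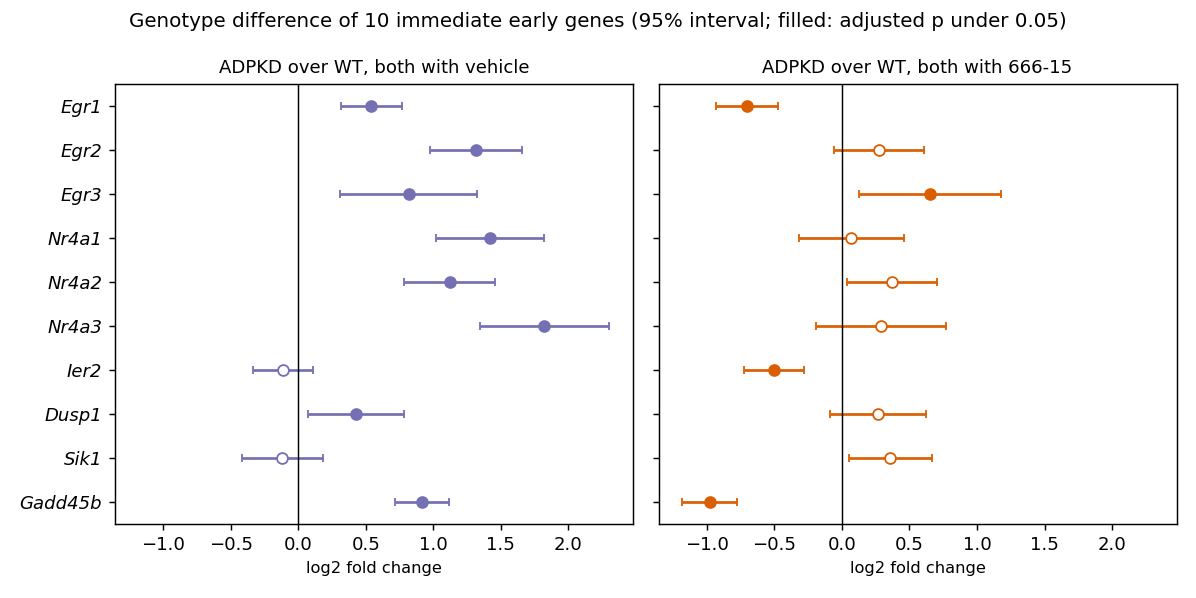
Log2 fold change of ADPKD over WT cells, with vehicle (left) and with the inhibitor (right), with 95% intervals; filled points passed an adjusted p of 0.05. With vehicle 8 of 10 genes are above 0 and filled, and with the inhibitor Egr3 is filled above 0 and Egr1, Ier2 and Gadd45b below 0.

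Over the 10 genes the median log2 fold change between genotypes with vehicle was 0.87, against 0.05 over all tested genes. For the inhibitor in ADPKD cells the median was -0.44 against 0.02 over all genes, and in WT cells 0.30 against -0.01. The difference of effects had a median of -0.90 against -0.02 and was below 0 for 9 genes, with Sik1 at 0.47 ± 0.20 (edgeR adjusted p = 0.0988) as the exception. The Sik1 value was 0.31 to 0.73 over 14 alternatives and passed in 5 of them: with DESeq2, with no low-count filter, with the GC trend removed, and without vehicle-treated WT replicate 2 or inhibitor-treated WT replicate 1. Of the 6 genes lower with the inhibitor in ADPKD cells, Egr1, Nr4a1 and Gadd45b were higher with it in WT cells. Without inhibitor-treated WT replicate 2 the differences of effects of the 6 called genes were -1.21 for Egr1, -1.01 for Egr2, -1.57 for Nr4a1, -0.94 for Nr4a2, -1.77 for Nr4a3 and -1.87 for Gadd45b, and all 6 passed. The others were 0.037 for Egr3, -0.38 for Ier2, -0.40 for Dusp1 and 0.31 for Sik1. In WT cells the inhibitor differences without that library were 0.35 for Egr1, 0.91 for Egr2, -0.34 for Egr3, 0.91 for Nr4a1, 0.53 for Nr4a2, 0.40 for Nr4a3, 0.30 for Ier2, -0.034 for Dusp1, -0.28 for Sik1 and 0.80 for Gadd45b, of which Egr2, Nr4a1, Nr4a2 and Gadd45b passed.

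**Figure D4:**
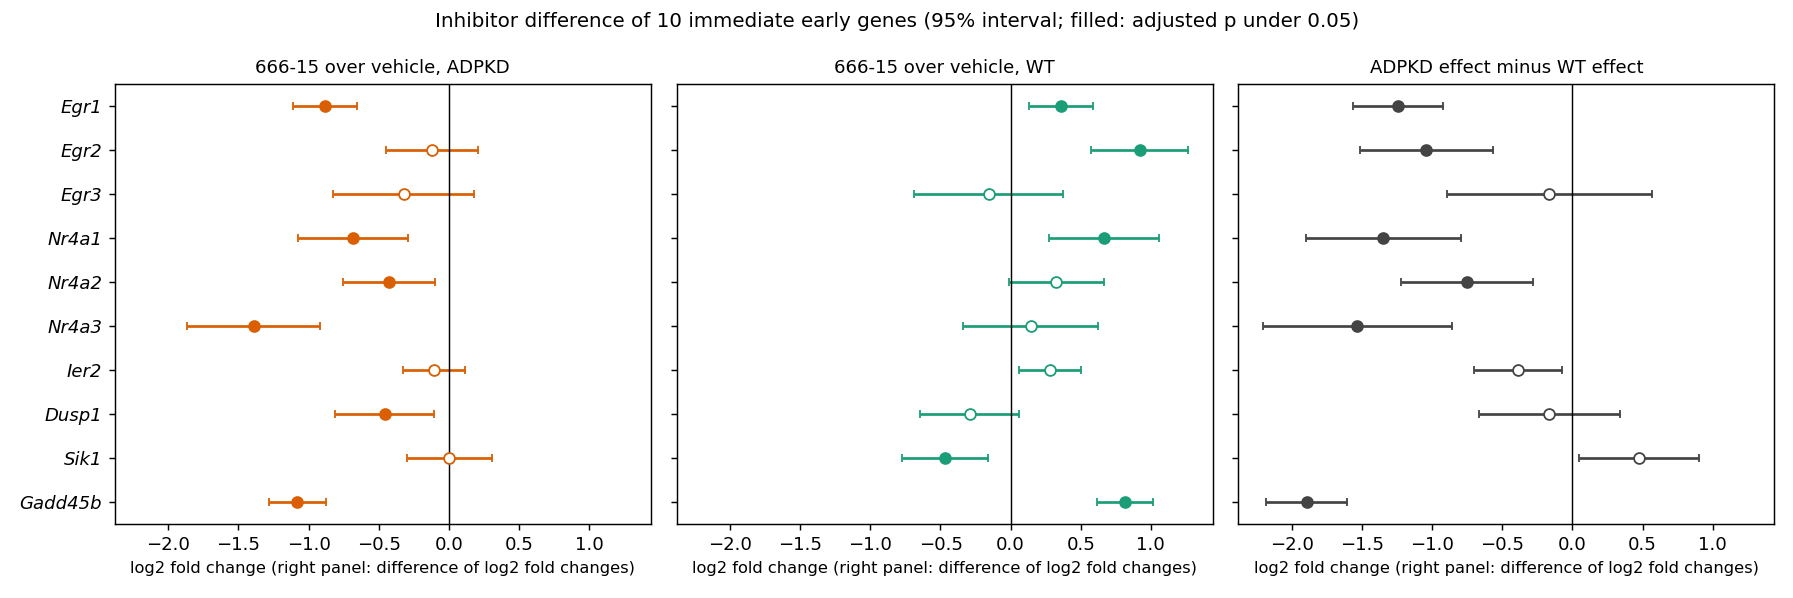
Log2 fold change of the inhibitor (666-15) over vehicle in ADPKD cells (left) and in WT cells (middle), and the difference of the effects (right), with 95% intervals; filled points passed an adjusted p of 0.05. On the left 6 genes are filled below 0, 4 are filled above 0 in the middle with Sik1 filled below, and 6 are filled below 0 on the right.

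When both genotypes had the inhibitor, 1 of the 10 genes was higher in ADPKD than in WT cells and 3 were lower, against 21.8% higher and 24.5% lower (46.3% in either direction) of all tested genes. Egr1 (-0.70 ± 0.10, edgeR adjusted p = 1.37e-04), Ier2 (-0.50 ± 0.10, edgeR adjusted p = 0.0015) and Gadd45b (-0.98 ± 0.09, edgeR adjusted p = 3.55e-06) were lower, and Egr3 was higher (0.65 ± 0.24, edgeR adjusted p = 0.0416). The Egr3 call was lost in 8 of 15 alternatives, among them without either vehicle-treated WT library, inhibitor-treated WT replicate 1 or inhibitor-treated ADPKD replicate 1, with values from 0.45 to 0.84 and adjusted p up to 0.289. The Nr4a differences were 0.07 (95% interval -0.32 to 0.46) for Nr4a1, 0.37 (0.03 to 0.71) for Nr4a2 and 0.29 (-0.19 to 0.77) for Nr4a3, and none passed (edgeR adjusted p = 0.769, 0.0675 and 0.304). Dusp1 was at 0.27 (edgeR adjusted p = 0.204) and Sik1 at 0.36 (edgeR adjusted p = 0.0537). These 5 values depended on which inhibitor-treated WT library was used. Without replicate 1 they were 0.37 for Nr4a1, 0.62 for Nr4a2, 0.60 for Nr4a3, 0.59 for Dusp1 and 0.58 for Sik1, of which Nr4a2, Dusp1 and Sik1 passed (adjusted p = 0.0052, 0.0012 and 0.0036). Without replicate 2, the library of the other sex, they were -0.17, 0.17, 0.041, 0.013 and 0.18, and none passed (adjusted p = 0.377, 0.405, 0.903, 0.940 and 0.292). With no low-count filter Nr4a2 (0.36, adjusted p = 0.0383) and Dusp1 (0.26, adjusted p = 0.0473) passed as well. Removing a GC trend brought Dusp1 to 0.46 (adjusted p = 0.0215), and Sik1 passed in 9 of 15 alternatives in all. Without replicate 2 Egr1 (-0.69), Egr3 (0.84), Ier2 (-0.51) and Gadd45b (-0.96) passed and Egr2 was at 0.29.

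Whether inhibitor-treated ADPKD cells stood at the level of vehicle-treated WT cells differed from gene to gene. In that comparison 3 of the genes were higher and 1 lower, against 28.6% higher and 26.7% lower (55.3% in either direction) of all tested genes. Egr2 (1.20 ± 0.16, edgeR adjusted p = 3.20e-05), Nr4a1 (0.74 ± 0.18, edgeR adjusted p = 0.0053) and Nr4a2 (0.69 ± 0.16, edgeR adjusted p = 0.0020) were above vehicle-treated WT cells. Egr1 was below them (-0.34 ± 0.10, edgeR adjusted p = 0.0141), a call that did not hold with replicate 2 of the inhibitor-treated ADPKD group (-0.21, adjusted p = 0.160) or of the vehicle-treated WT group (-0.29, adjusted p = 0.0986) left out, nor with a GC trend removed (-0.13, adjusted p = 0.327). Nr4a3 differed by 0.43 (95% interval -0.05 to 0.91), Gadd45b by -0.16 (-0.36 to 0.04), Ier2 by -0.22 (-0.44 to 0.004) and Dusp1 by -0.03 (-0.38 to 0.33), which did not pass. Egr3, at 0.50 (-0.02 to 1.01, edgeR adjusted p = 0.0939), and Sik1, at -0.11 (-0.42 to 0.19, edgeR adjusted p = 0.524), did not pass either. Nr4a3 passed with no low-count filter (0.42, edgeR adjusted p = 0.0082). With the 2 groups alone Nr4a3 (0.35, edgeR adjusted p = 0.0177), Gadd45b (-0.24, edgeR adjusted p = 0.0192) and Ier2 (-0.30, edgeR adjusted p = 0.0160) passed. With the GC trend removed Gadd45b was at 0.043 and Ier2 at 0.090.

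Fold changes with the inhibitor in ADPKD cells followed GC content over all genes, with a Spearman correlation of -0.354 across 17252 genes, which share the same 8 libraries. The correlation was -0.337 for the difference of effects. It was 0.0857 for genotype with vehicle and 0.0155 for the inhibitor in WT cells. GC content of the longest transcript was above the median of tested genes for 8 of the 10 genes and below it for Nr4a2 and Nr4a3. With the trend removed from each library, Nr4a3 (-1.45), Gadd45b (-0.75), Egr1 (-0.53) and Nr4a2 (-0.51) were still called lower with the inhibitor in ADPKD cells. The calls of Nr4a1 (-0.35, edgeR adjusted p = 0.0966) and Dusp1 (-0.27, edgeR adjusted p = 0.161) were lost, and Ier2 was higher (0.49, edgeR adjusted p = 0.0024). All 6 differences of effects were kept, at -0.88 for Egr1, -0.96 for Egr2, -0.99 for Nr4a1, -0.84 for Nr4a2, -1.60 for Nr4a3 and -1.55 for Gadd45b, and Sik1 passed at 0.73 (edgeR adjusted p = 0.0101). Ier2 was then lower between genotypes with vehicle (-0.40, edgeR adjusted p = 0.0045) and its call between genotypes with the inhibitor was lost (-0.22, edgeR adjusted p = 0.0976).

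Relatives of the 10 genes went both ways. Of 15 family members, 8 were higher and 3 lower between genotypes with vehicle (median 0.49), 4 higher and 6 lower with the inhibitor in ADPKD cells (median -0.33), and 4 higher and 1 lower with it in WT cells (median 0.19). Over all tested genes these medians were 0.05, 0.02 and -0.01, and 56.4%, 41.4% and 25.5% were called in either direction. Gadd45g, the third Gadd45 gene, averaged 204 ± 4.8 CPM in inhibitor-treated ADPKD cells, 709.8 ± 87 CPM in vehicle-treated ADPKD cells, 262 ± 3.5 CPM in inhibitor-treated WT cells and 245 ± 6.0 CPM in vehicle-treated WT cells (SD, n = 2 each). It rose with genotype (1.53 ± 0.10, edgeR adjusted p = 4.89e-08) and fell with the inhibitor in ADPKD cells (-1.80 ± 0.10, edgeR adjusted p = 2.80e-07). Ier5, a relative of Ier2, rose with genotype (0.69 ± 0.09) and fell with the inhibitor in ADPKD cells (-0.85 ± 0.09). Dusp10, a phosphatase of stress kinases, went the other way with the inhibitor in ADPKD cells, where it rose (1.07 ± 0.11, edgeR adjusted p = 1.19e-05). It also rose with the inhibitor in WT cells (0.44 ± 0.11, edgeR adjusted p = 0.0099) and with genotype (0.92 ± 0.11, edgeR adjusted p = 9.59e-06).

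Partners and substrates of the encoded proteins had 8 of 13 tested genes higher and 3 lower between genotypes with vehicle (median 0.46). With the inhibitor in ADPKD cells 2 were higher and 6 lower (median -0.11), and in WT cells 3 were higher and 2 lower (median 0.24). Among all tested genes 28.8% were higher and 27.6% lower between genotypes (median 0.05). The shares were 22.3% and 19.1% with the inhibitor in ADPKD cells (median 0.02) and 13.9% and 11.6% in WT cells (median -0.01). Nab2, an Egr-induced corepressor of Egr proteins, averaged 25.5 ± 4.3 CPM in inhibitor-treated ADPKD cells, 37.7 ± 3.0 CPM in vehicle-treated ADPKD cells, 34.5 ± 3.3 CPM in inhibitor-treated WT cells and 14.8 ± 0.59 CPM in vehicle-treated WT cells (SD, n = 2 each). It rose with genotype (1.35 ± 0.16), fell with the inhibitor in ADPKD cells (-0.56 ± 0.15, edgeR adjusted p = 0.0098) and rose with it in WT cells (1.22 ± 0.16, edgeR adjusted p = 9.60e-05). Nab1, the constitutive corepressor, rose with the inhibitor in ADPKD cells (0.57 ± 0.10, edgeR adjusted p = 5.80e-04). Rxra and Rxrb, which pair with Nr4a1 and Nr4a2, fell with the inhibitor in ADPKD cells (-0.64 ± 0.14 and -0.76 ± 0.16). Both also fell with it in WT cells (-0.42 ± 0.13 and -0.62 ± 0.16, edgeR adjusted p = 0.0353 and 0.0131). Their differences of effects did not pass (-0.22 and -0.14, edgeR adjusted p = 0.428 and 0.695).

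Of 19 factors and kinases that switch such genes on, 10 were higher and 6 lower between genotypes with vehicle (median 0.36), 5 higher and 5 lower with the inhibitor in ADPKD cells (median -0.04), and 2 higher and 1 lower with it in WT cells (median 0.12). Creb1, the target of the inhibitor, rose with genotype (0.78 ± 0.11, edgeR adjusted p = 7.38e-05) and fell with the inhibitor in ADPKD cells (-0.47 ± 0.11, edgeR adjusted p = 0.0057). With the inhibitor in WT cells Creb1 was at -0.31 ± 0.12 (edgeR adjusted p = 0.0733). Its difference of effects did not pass (-0.16 ± 0.16, edgeR adjusted p = 0.512). Mrtfa, a coactivator of serum response factor, rose with genotype (2.13 ± 0.16, edgeR adjusted p = 3.76e-07), as did Elk3, a partner of that factor (1.89 ± 0.13, edgeR adjusted p = 8.56e-08). Rps6ka1, a kinase of the ERK pathway that can phosphorylate CREB, rose with genotype (1.21 ± 0.11) and with the inhibitor in WT cells (1.62 ± 0.11, edgeR adjusted p = 9.33e-07). Of 14 ERK pathway response and feedback genes, 5 were higher and 3 lower between genotypes (median 0.09), 3 higher and 4 lower with the inhibitor in ADPKD cells (median -0.17) and 3 higher and 1 lower with it in WT cells (median -0.02). The background for both lists was 56.4%, 41.4% and 25.5% of tested genes called in either direction (medians 0.05, 0.02 and -0.01).

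Other genes known to be induced by CREB did not share one direction. Of 23 tested, 9 were higher and 12 lower between genotypes with vehicle (median -0.43), 5 higher and 6 lower with the inhibitor in ADPKD cells (median -0.03), and 8 higher and 3 lower with it in WT cells (median 0.27). Against these stand 56.4%, 41.4% and 25.5% of all tested genes called in either direction (medians 0.05, 0.02 and -0.01). Vgf, a secreted neuropeptide precursor, averaged 91.0 ± 7.9 CPM in inhibitor-treated ADPKD cells and 352 ± 35 CPM in vehicle-treated ADPKD cells, against 3.78 ± 0.56 CPM in inhibitor-treated WT cells and 4.71 ± 0.53 CPM in vehicle-treated WT cells (SD, n = 2 each). Vgf was lower with inhibitor than with vehicle in ADPKD cells (-1.95 ± 0.12, edgeR adjusted p = 3.78e-07). Fos, a subunit of AP-1 and itself a classic CREB target, averaged 538 ± 19 CPM in inhibitor-treated ADPKD cells, 228 ± 19 CPM in vehicle-treated ADPKD cells, 969 ± 26 CPM in inhibitor-treated WT cells and 488 ± 53 CPM in vehicle-treated WT cells. It fell with genotype (-1.10 ± 0.10, edgeR adjusted p = 1.36e-06) and rose with the inhibitor in ADPKD cells (1.24 ± 0.10, edgeR adjusted p = 3.94e-06), in both cases against the direction of Egr1, and rose in WT cells (0.99 ± 0.10, edgeR adjusted p = 1.97e-05). The circadian gene Per2 also rose with the inhibitor in both genotypes, by 1.01 ± 0.15 in ADPKD cells and 1.36 ± 0.15 in WT cells.

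Genes that cell dissociation induces went both ways in each comparison. Of 27 such genes that are not among the 10, of which Fos, Fosb, Junb and Ccn1 are also CREB-induced, 11 were higher and 7 lower between genotypes with vehicle (median 0.21), 4 higher and 11 lower with the inhibitor in ADPKD cells (median -0.29), and 8 higher and 5 lower with it in WT cells (median 0.15). Over all tested genes the shares called in either direction were 56.4%, 41.4% and 25.5%. In the difference of effects 2 were higher and 12 lower (median -0.52, against -0.02 over all genes). Of all tested genes 13.6% were higher and 13% lower there (26.6% in either direction). They held 1.29% to 1.31% of counts in inhibitor-treated ADPKD libraries, 1.37% to 1.46% in vehicle-treated ADPKD libraries, 1.62% in both inhibitor-treated WT libraries and 1.31% to 1.44% in vehicle-treated WT libraries. Junb, another AP-1 subunit, rose with genotype (0.84 ± 0.11) and fell with the inhibitor in ADPKD cells (-0.68 ± 0.11). It averaged 551 ± 24 CPM in inhibitor-treated ADPKD cells, 881 ± 60 CPM in vehicle-treated ADPKD cells, 609 ± 99 CPM in inhibitor-treated WT cells and 492 ± 23 CPM in vehicle-treated WT cells (SD, n = 2 each). Atf3, a stress-induced factor, had 569 ± 16, 518 ± 23, 1181 ± 102 and 591 ± 82 CPM in the same order and rose with the inhibitor in WT cells (0.998 ± 0.11, edgeR adjusted p = 2.97e-05). The 9 heat shock genes in this list had 2 higher and 3 lower between genotypes, 1 higher and 3 lower with the inhibitor in ADPKD cells and 2 higher and 2 lower with it in WT cells. The part of dissociation in the values of the 10 genes was not tested.

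**Figure D5:**
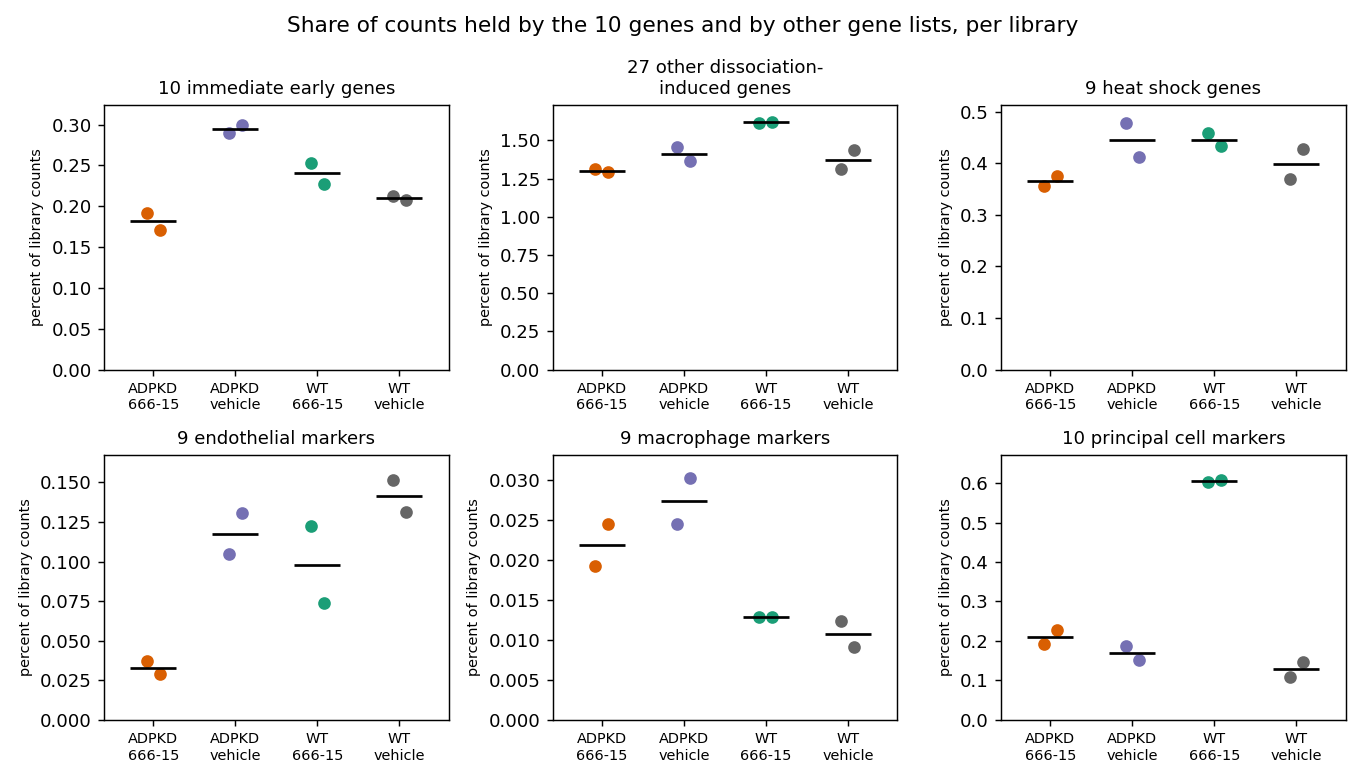
Percent of each library's counts held by the 10 immediate early genes, by 27 other dissociation-induced genes, by the 9 heat shock genes among them and by 3 sets of cell type markers; points are libraries, bars the mean of 2, and each axis starts at 0. The 10 genes are highest in vehicle-treated ADPKD libraries, the dissociation-induced genes in inhibitor-treated WT libraries.

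Profiles over the 8 libraries were compared as log2 CPM less the mean of the gene, by the root mean square difference. Within the 10 genes the closest pairs were Nr4a1 with Nr4a2 (0.192) and Egr1 with Gadd45b (0.211), and the farthest was Nr4a3 with Ier2 (0.838). Among 10747 other genes with a mean of at least 5 CPM, the nearest to Egr1 was Bet1l (0.0662), and the nearest to Egr2 was Rasgef1b (0.0862). Cnot9 was nearest to Egr3 (0.114), P3h4 to Nr4a1 (0.112), Rps6ka4 to Nr4a2 (0.0861) and Vasp to Nr4a3 (0.186). For the others the nearest were Gtf3c1 for Ier2 (0.0612), Klhdc3 for Dusp1 (0.0773), Dph5 for Sik1 (0.101) and Polr2a for Gadd45b (0.135). Nr4a3 had the most distant nearest gene.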

How the data were processed

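The deposited table holds whole-number counts of reads per gene for 8 libraries. Per the submitters' processing notes, the authors aligned reads to mm10 with HISAT2 2.1.0, counted them with featureCounts 1.6.0 and used DESeq2. Which annotation, strand setting and rule for multiply mapped reads they used is not given in the sources used here. Columns of the vehicle groups, whose headers do not name the vehicle, were assigned by elimination. All 37 mitochondrial genes are at 0 throughout the table. Positions and transcript GC content came from GENCODE M21 (GRCm38), which matched 97.0% of symbols, and promoter sequences from RefSeq (GRCm38.p6).

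Counts were analysed with edgeR 4.0.16 in R 4.3.3. Genes were kept by filterByExpr (minimum count 10, minimum total 15), libraries scaled by TMM, and 1 robust quasi-likelihood model was fitted for the 4 groups. It left 4 residual degrees of freedom, with 8.69 as the median of the prior ones, and the common biological coefficient of variation was 0.138. Tests were two-sided, with Benjamini-Hochberg adjustment over 17440 genes in each comparison. The script was tested on simulated data. Alternatives were RLE scaling, no filter, the robust option off, the replicate number as a block, the 2 compared groups alone, DESeq2 1.42.0, removal of a GC trend per library (lowess, span 0.3) and leaving out each library. Where that left 1 library in a group, it was assumed to vary like the other groups.

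The 10 genes and all lists were chosen with earlier results of these data known. Named genes are the 10, the 3 nearest profiles of each, and up to 4 genes per list and comparison with the smallest p. Extraction notes mention both DBA-positive cells and whole kidney. Figures were drawn with matplotlib 3.10.9.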

Additional observations from a re-analysis of the deposited data

Results flagged for a closer look

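The inhibitor's log2 fold change differed between ADPKD and WT cells, by a test of the difference itself (edgeR's interaction term), for 6 of the 10 genes. The differences, ADPKD effect minus WT effect, were -1.24 for Egr1, -1.04 for Egr2, -1.35 for Nr4a1, -0.75 for Nr4a2, -1.53 for Nr4a3 and -1.90 for Gadd45b, in a comparison where 26.6% of tested genes were called.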

How the results depend on the processing

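Leaving out 1 library at a time gave 3 to 6 of the 10 genes called for the inhibitor in ADPKD cells, 2 to 5 in WT cells and 5 to 7 for the difference of effects, with 4783 to 7817, 2402 to 4707 and 3037 to 5075 of all genes called in these comparisons. It turned the direction of some values that had not passed, whose ranges were -0.29 to 0.033 for Sik1 between genotypes with vehicle; -0.25 to 0.042 for Egr2, -0.23 to 0.029 for Ier2 and -0.037 to 0.071 for Sik1 with the inhibitor in ADPKD cells; -0.17 to 0.40 for Nr4a3 with the inhibitor in WT cells; -0.17 to 0.37 for Nr4a1 between genotypes with the inhibitor; -0.13 to 0.067 for Dusp1 and -0.27 to 0.050 for Sik1 between inhibitor-treated ADPKD and vehicle-treated WT cells; and -0.35 to 0.037 for Egr3 and -0.40 to 0.17 for Dusp1 in the difference of effects. For the inhibitor in ADPKD cells Sik1 was at -0.0058 with RLE scaling and with DESeq2 and at -0.026 with the 2 groups alone. With the GC trend removed Ier2 was at 0.49 in that comparison; Ier2 was at 0.090, Dusp1 at 0.15, Sik1 at 0.073 and Gadd45b at 0.043 between inhibitor-treated ADPKD and vehicle-treated WT cells; and Ier2 was at 0.18 and Dusp1 at 0.037 in the difference of effects. The 2 groups alone called 7 of the 10 genes between inhibitor-treated ADPKD and vehicle-treated WT cells, against 4, with Nr4a3, Ier2 and Gadd45b gained. Of all genes this setting called 10564, against 9649. The causes of these changes were not tested. Replicate numbers gave no pairing: deviations of same-numbered libraries correlated at -0.0371 to 0.0806. With the replicate number as a block the called genes of the 10 were 8 between genotypes with vehicle, 6 with the inhibitor in ADPKD cells, 6 in WT cells and 6 for the difference of effects, against 8, 6, 5 and 6. The block brought past the threshold Ier2 with the inhibitor in WT cells (0.28, adjusted p = 0.0499) and, between genotypes with the inhibitor, Nr4a2 (0.37, adjusted p = 0.0378) and Sik1 (0.37, adjusted p = 0.0368), and Egr3 fell short there (0.65, adjusted p = 0.0517). With 2 libraries a group and 75 counts in its lowest library, Egr3 had the widest intervals of the 10 genes.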
